A study of Mus musculus with 3 samples.

Results

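The 9 genes followed here mark tumour macrophages in mice, and their levels were read in 3 RNA-seq libraries of sorted myeloid cells. They are Adgre1, C1qa, C1qb, C1qc, Mrc1, Ms4a7, Apoe, Spp1 and Cd68. They were taken by gene symbol from a table of 19723 genes, in which all 9 were found. The alisertib library held myeloid-derived suppressor cells (MDSCs) pooled from 20 tumours of alisertib-treated mice, alisertib being a drug that inhibits Aurora A, a kinase of mitosis. The control library held MDSCs pooled from 20 tumours of control mice, which the labels call untreated in one place and control treated in another. The bone marrow library held neutrophils from 5 wild-type mice, with no tumour named in the labels. All donors were female BALB/c mice aged 6 to 8 weeks, no transgene or deletion was named, and the labels state a purity above 90% after sorting on a FACSAria instrument. The tumour line, the dose of alisertib and the surface markers of the sort were not given in the sources used here. Each group had 1 library, so no difference below has a replicate check, and no p-value was computed.

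MDSCs are immature or activated myeloid cells named for their suppression of T cells, and part of them resemble neutrophils and part monocytes. Macrophages in tissues and tumours are a main source of complement C1q, whose A, B and C chains are encoded by C1qa, C1qb and C1qc and are assembled together into the molecule that starts the classical complement pathway. Adgre1 encodes F4/80, an adhesion-type receptor on mouse macrophages, Mrc1 the mannose receptor CD206, and Ms4a7 a small membrane protein of the MS4A family. Cd68 encodes macrosialin, a glycoprotein of late endosomes and lysosomes that is abundant in phagocytes. Apoe encodes apolipoprotein E, a lipid carrier, and Spp1 encodes osteopontin, a secreted ligand of integrins and CD44. None of the 3 libraries was labelled as macrophages, so the genes were read here within sorted MDSCs and neutrophils.

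The 3 C1q genes lie next to each other on the minus strand of chromosome 4 in the mouse build GRCm38 (GENCODE M21), with C1qb at chr4:136880129-136886187, C1qc at chr4:136889804-136893065 and C1qa at chr4:136895917-136898803. Each has 3 exons. Cd68 lies on the minus strand at chr11:69664213-69666153, Apoe on the minus strand at chr7:19696109-19699188, and Spp1 on the plus strand at chr5:104435118-104441050. Adgre1 lies on the plus strand at chr17:57358691-57483527, Mrc1 on the plus strand at chr2:14229392-14332057 and Ms4a7 on the minus strand at chr19:11321039-11336146. An exon of Spp1 overlaps an exon of Gm42793 on the same strand, and reads of that stretch could belong to either gene. Gm42793 had 188 counts in the alisertib library, 73 in the control library and 12 in the bone marrow library.

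Promoter sequence is shown for C1qb, C1qc, Cd68 and Spp1, 4 genes whose levels set the tumour libraries apart from bone marrow. RefSeq (GRCm38.p6) gave a promoter for 7 of the 9 genes, in 11 windows, and C1qa and Adgre1 were not among them. Each line gives bases upstream of both the RefSeq and the GENCODE start, 5′ to 3′ on the gene's strand. Capitals mark GAGGAA, the core letters of sites bound by PU.1, an ETS factor of myeloid cells, or TTCCTC, the same letters on the other strand. The windows are chr4:136886201-136886450 for C1qb, chr4:136893066-136893164 for C1qc and chr11:69666171-69666420 for Cd68, all on the minus strand, and chr5:104434861-104435110 on the plus strand for Spp1.
C1qb: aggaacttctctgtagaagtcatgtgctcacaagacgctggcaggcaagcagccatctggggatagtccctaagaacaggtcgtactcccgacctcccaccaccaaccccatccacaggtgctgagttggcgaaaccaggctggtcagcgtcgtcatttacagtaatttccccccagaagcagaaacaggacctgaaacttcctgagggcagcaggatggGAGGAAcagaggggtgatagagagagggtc
C1qc: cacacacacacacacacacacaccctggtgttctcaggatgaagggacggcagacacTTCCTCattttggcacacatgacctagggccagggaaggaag
Cd68: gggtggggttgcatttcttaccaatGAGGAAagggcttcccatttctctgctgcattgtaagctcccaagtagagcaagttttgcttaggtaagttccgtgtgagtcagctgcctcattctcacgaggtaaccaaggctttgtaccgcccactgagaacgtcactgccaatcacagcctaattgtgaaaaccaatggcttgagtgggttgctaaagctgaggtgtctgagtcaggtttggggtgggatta
Spp1: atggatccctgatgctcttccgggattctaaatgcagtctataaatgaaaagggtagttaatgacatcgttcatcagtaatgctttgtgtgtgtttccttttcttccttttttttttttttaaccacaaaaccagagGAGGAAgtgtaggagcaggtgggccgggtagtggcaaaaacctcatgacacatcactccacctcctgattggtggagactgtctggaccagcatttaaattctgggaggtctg
In the 250 bases before the RefSeq start, GAGGAA began 30 bases upstream in C1qb, 225 in Cd68 and 113 in Spp1. Its reverse complement began 193 bases upstream of the RefSeq start in C1qc, whose printed line ends at the GENCODE start further upstream. On either strand GAGGAA was present in 7 of the 11 windows and in 6 of the 7 genes, Ms4a7 being the other, while 23.3% of 32851 mouse promoter windows of the same length held it. The AP-1 letters TGANTCA were in 2 windows, 1 of Cd68 and 1 of Ms4a7, against 6.75% of all windows, and Cd68 held them at 149 and 24 bases. The TATA letters TATAAA were in 2 windows, against 12.4% of all, and the MAF half-site letters TGCTGAC were in 0, against 3.81% of all. All 4 motifs were searched on both strands, and no matches of different motifs overlap in these windows. A match describes the letters and is no measurement of binding.

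The libraries summed to 19373087 counts in alisertib MDSCs, 21959748 in control MDSCs and 21987097 in bone marrow neutrophils. Levels below are counts per 1e6 counts (CPM) after scaling by trimmed means (TMM), or FPKM where genes are compared with each other, since only FPKM takes gene length into account. All ratios are of CPM, and the 95% intervals are exact binomial ones that cover counting error only, because each group had 1 library. No molecular identifiers were named and several reads can stem from 1 molecule, so the intervals can be too narrow even for counting error. Calls were made among 13019 genes with at least 1 CPM in 1 library, and a call means that even the bound of the interval nearest to 1 was at least 2-fold away. Of 17 neutrophil markers none was at 0 counts in any library, but their levels differed, in some of them widely. S100a9, a calcium-binding protein of neutrophils, stood at 13698 FPKM in the alisertib library, 33077 in the control library and 57581 in the bone marrow library, and Ly6g, the neutrophil surface marker, at 61.9, 85.0 and 1155 FPKM in the same order. Elane, a protease of neutrophil granules, was at 0.289 CPM in alisertib MDSCs, 0.256 in control MDSCs and 31.9 in bone marrow neutrophils. Csf3r, another of the 17, differed less, at 464, 601 and 649 FPKM in the same order. Of the 17, 13 were called lower and 0 higher in control MDSCs than in bone marrow, where 22.9% of all genes were called lower and 18.3% higher.

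The 9 genes took few reads, with most of those reads from 3 genes. Together they held 39351 counts in the alisertib library, 0.203% of its total, 24347 counts or 0.111% in the control library, and 3594 counts or 0.0163% in the bone marrow library. Without Spp1 the sums were 17724, 14821 and 3319 counts. Without Spp1, Apoe and Cd68 the other 6 genes held 2195 counts in alisertib MDSCs, 1479 in control MDSCs and 773 in bone marrow neutrophils. In bulk libraries such as these, fewer cells that express a gene and less of its RNA per cell cannot be told apart.

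**Figure D1:**
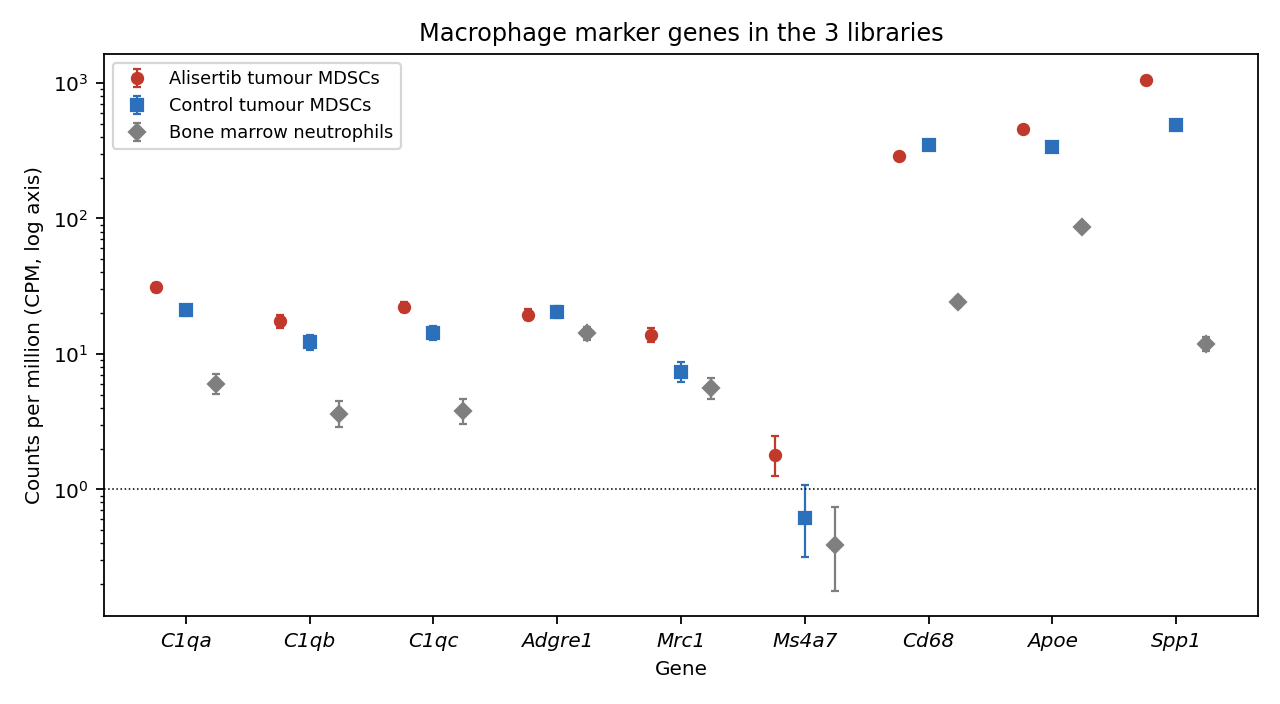
Level of each of the 9 genes in each library, in CPM on a log axis, 1 point per library, with bars for the 95% interval of the counts and a dotted line at 1 CPM. Spp1, Cd68 and Apoe stand highest in both tumour libraries, and Ms4a7 is lowest in all 3 libraries.

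All 3 C1q chains were higher in both tumour libraries than in bone marrow neutrophils. C1qa had 643 counts in alisertib MDSCs, 410 in control MDSCs and 138 in bone marrow neutrophils, or 31.0, 21.0 and 5.98 CPM. C1qb had 361, 237 and 83 counts in the same order, or 17.4, 12.1 and 3.60 CPM. C1qc had 461, 280 and 87 counts, or 22.2, 14.3 and 3.77 CPM. Each chain was thus highest in the alisertib library and lowest in bone marrow. Against bone marrow, the control ratio was 3.51 (2.89 to 4.29) for C1qa, 3.37 (2.62 to 4.38) for C1qb and 3.80 (2.98 to 4.89) for C1qc, and all 3 were called higher. The alisertib ratio over bone marrow was 5.18 (4.30 to 6.27) for C1qa, 4.83 (3.80 to 6.21) for C1qb and 5.89 (4.67 to 7.49) for C1qc, and again all 3 were called. Both of these comparisons share the bone marrow library and are set side by side without a test between them.

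Between the tumour libraries no C1q chain was called. The ratio of alisertib over control was 1.48 (1.30 to 1.67) for C1qa, 1.43 (1.21 to 1.70) for C1qb and 1.55 (1.33 to 1.80) for C1qc. The 3 intervals lie above 1 and overlap each other. Summed over the chains, C1q had 1465 counts in alisertib MDSCs, 927 in control MDSCs and 308 in bone marrow neutrophils, which gave 1.49 (1.37 to 1.62) for alisertib over control. The sum gave 3.55 (3.12 to 4.06) for control over bone marrow and 5.29 (4.67 to 6.00) for alisertib over bone marrow.

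The shares of the 3 chains differed between libraries by less than their counting intervals, while the summed level of C1q differed. C1qa made up 43.9% of C1q counts in the alisertib library (exact Clopper-Pearson interval 41.3 to 46.5), 44.2% in the control library (41.0 to 47.5) and 44.8% in the bone marrow library (39.2 to 50.5). C1qb made up 24.6%, 25.6% and 26.9% in the same order, and C1qc 31.5%, 30.2% and 28.2%. For every chain the intervals of the 3 libraries overlap. On the FPKM scale, which corrects for length, C1qa held 52.0% of the C1q level in alisertib MDSCs, 52.1% in control MDSCs and 52.2% in bone marrow neutrophils, and C1qc was the smallest share at 20.1%, 19.2% and 17.7%.

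**Figure D2:**
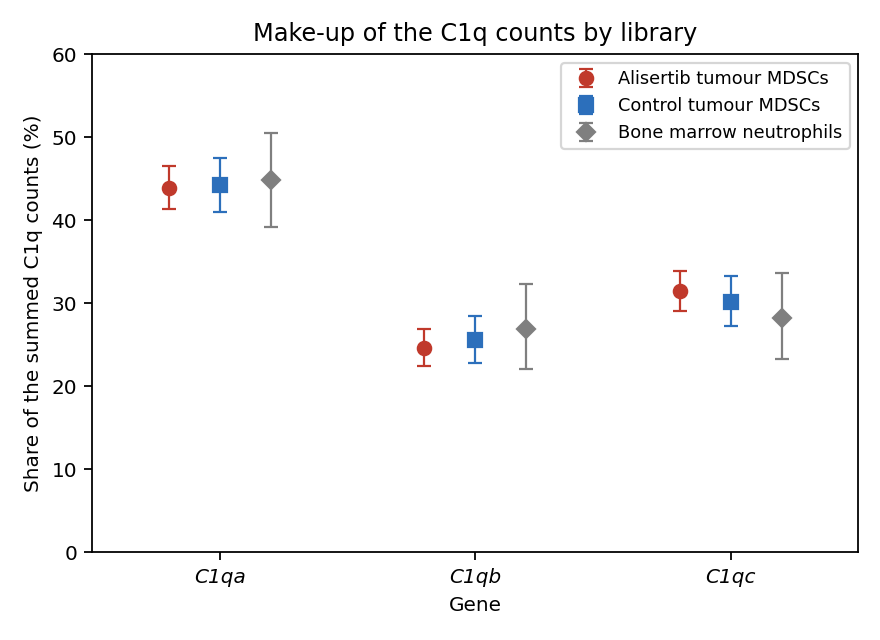
Share of C1q counts from each of the 3 chains, in percent with exact Clopper-Pearson intervals, by library, with alisertib first and bone marrow last. C1qa gives 43.9%, 44.2% and 44.8%, and the intervals of the 3 libraries overlap for each chain.

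The surface receptors Adgre1 and Mrc1 were at 20.3 CPM or less in all 3 libraries, and neither was called between control MDSCs and bone marrow. Adgre1 had 405 counts in alisertib MDSCs, 396 in control MDSCs and 327 in bone marrow neutrophils, or 19.5, 20.3 and 14.2 CPM. Its ratio was 0.96 (0.84 to 1.11) for alisertib over control, 1.43 (1.23 to 1.66) for control over bone marrow and 1.38 (1.19 to 1.60) for alisertib over bone marrow, and none of these was called. The interval of Adgre1 between the tumour libraries includes 1, and its log2 ratio of −0.06 turned to 0.21 when libraries were scaled by total counts. Mrc1 had 288 counts in alisertib MDSCs, 144 in control MDSCs and 129 in bone marrow neutrophils, or 13.9, 7.37 and 5.59 CPM. The alisertib library was high for Mrc1 and the other libraries were closer to each other. Its ratio was 1.88 (1.54 to 2.32) for alisertib over control and 1.32 (1.03 to 1.69) for control over bone marrow, neither called, and 2.48 (2.01 to 3.08) for alisertib over bone marrow, which was called just inside the bound. Ms4a7 had 37 counts in alisertib MDSCs, 12 in control MDSCs and 9 in bone marrow neutrophils, or 1.78, 0.61 and 0.39 CPM. It passed the level filter only through the alisertib library, whereas the other 8 genes were at 1 CPM or more in every library. Its ratio was 2.90 (1.48 to 6.11) for alisertib over control and 1.57 (0.61 to 4.23) for control over bone marrow, and these counts are too few to place either against the 2-fold bound. The ratio of Ms4a7 for alisertib over bone marrow was 4.57 (2.17 to 10.8) and was called.

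Cd68, the lysosomal glycoprotein, was high in both tumour libraries and was the 1 gene among the 9 with an interval wholly below 1 between them. It had 6005 counts in alisertib MDSCs, 6744 in control MDSCs and 560 in bone marrow neutrophils, or 289, 345 and 24.3 CPM. The ratio was 14.2 (13.05 to 15.5) for control over bone marrow and 11.9 (10.9 to 13.02) for alisertib over bone marrow, both called. Between the tumour libraries it was 0.84 (0.81 to 0.87), which was not called, and its log2 ratio of −0.26 became 0.01 with total counts and −0.03 when the 50 most counted genes were left out of the total. The direction of Cd68 between the tumour libraries therefore rests on the scaling.

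The secreted products Apoe and Spp1 were the most counted of the 9 genes in the alisertib library. Apoe had 9524 counts in alisertib MDSCs, 6598 in control MDSCs and 1986 in bone marrow neutrophils, or 459, 338 and 86.1 CPM. Its ratio was 1.36 (1.32 to 1.40) for alisertib over control, not called, and 3.92 (3.73 to 4.13) for control over bone marrow and 5.33 (5.08 to 5.60) for alisertib over bone marrow, both called. The intervals of Apoe against bone marrow overlap those of the 3 C1q chains. Spp1 had 21627 counts in alisertib MDSCs, 9526 in control MDSCs and 275 in bone marrow neutrophils, or 1042, 488 and 11.9 CPM. It was the gene with the widest spread among the 9, and the only one called between the tumour libraries, at 2.14 (2.09 to 2.19) for alisertib over control. The lower bound of that interval is close to the 2-fold bound, and Spp1 was called under all 4 ways of scaling the libraries, with ratios from 2.06 to 2.57. Over bone marrow the ratio of Spp1 was 40.9 (36.3 to 46.3) in control MDSCs and 87.4 (77.6 to 98.8) in alisertib MDSCs, both called.

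Counted over the 9 genes, 1 was called higher and 0 lower in alisertib over control, where 1.80% of all genes were called higher and 1.18% lower. Under total counts 84.0% of the calls among all genes were to the higher side, under totals without the 50 most counted genes 82.2%, and under TMM 60.3%. Relative to TMM, these scalings moved the median log2 ratio of all genes by 0.27 and 0.23. The median log2 ratio of the 9 genes was 0.56, against 0.00 for all genes, and 7 of the 9 lay above 0, against 50.1% of all genes. In control over bone marrow 6 of the 9 were called higher and 0 lower, where 18.3% of all genes were called higher and 22.9% lower. The 3 not called were Adgre1, Mrc1 and Ms4a7, and the median log2 ratio was 1.81 for the 9 genes and −0.14 for all genes. In alisertib over bone marrow 8 of the 9 were called higher and 0 lower, where 18.7% of all genes were called higher and 22.3% lower, and Adgre1 was the gene not called. These 8 include Ms4a7, which passed the filter only through the alisertib library. Without Ms4a7, the other 8 genes gave 1 called higher in alisertib over control, 6 in control over bone marrow and 7 in alisertib over bone marrow, with median log2 ratios of 0.54, 1.86 and 2.39. In alisertib over bone marrow the median log2 ratio was 2.37 for the 9 genes and −0.09 for all genes. The 3 comparisons share libraries pairwise, so their counts are not separate evidence.

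**Figure D3:**
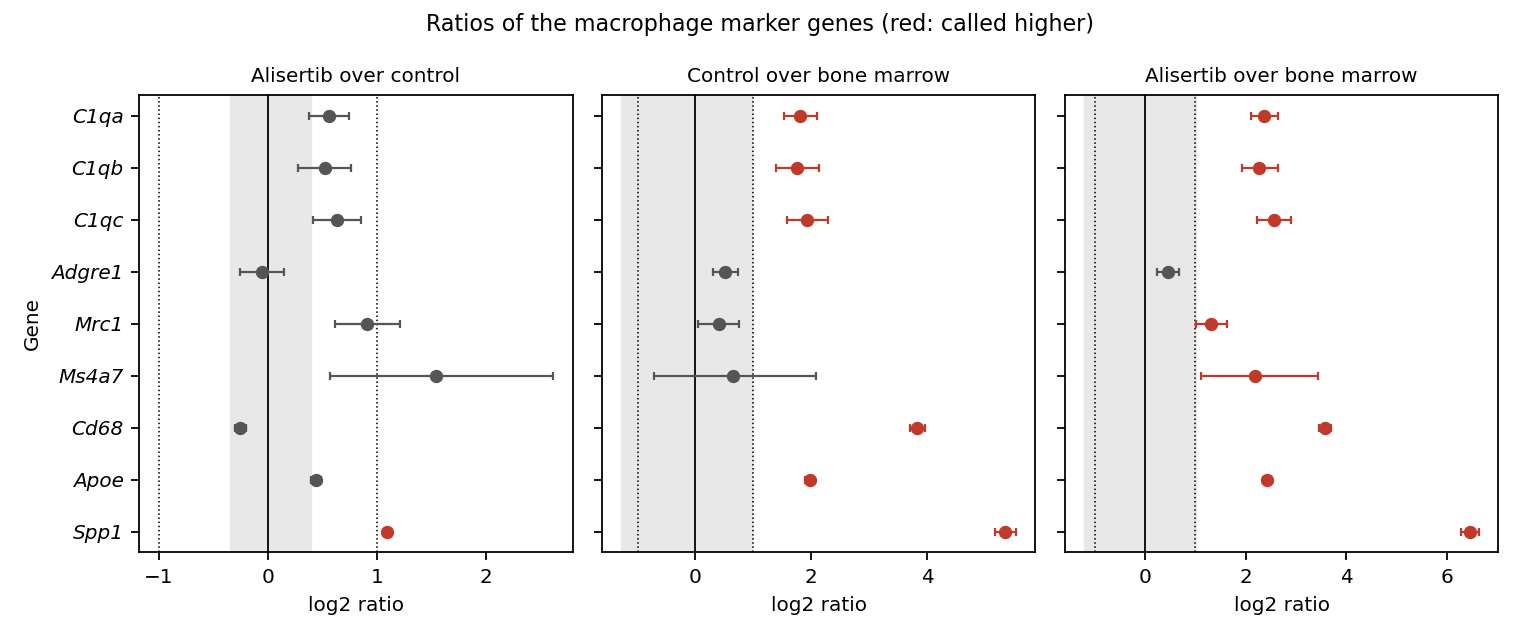
Log2 ratio of CPM for each of the 9 genes in the 3 comparisons, with 95% intervals from counting error, called genes in red, dotted lines at 2-fold and a grey band from the first to the third quartile of all genes. In alisertib over control the whole interval lies past the 2-fold line for Spp1 only, and Adgre1 stays within the lines in all 3 comparisons.

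**Figure D4:**
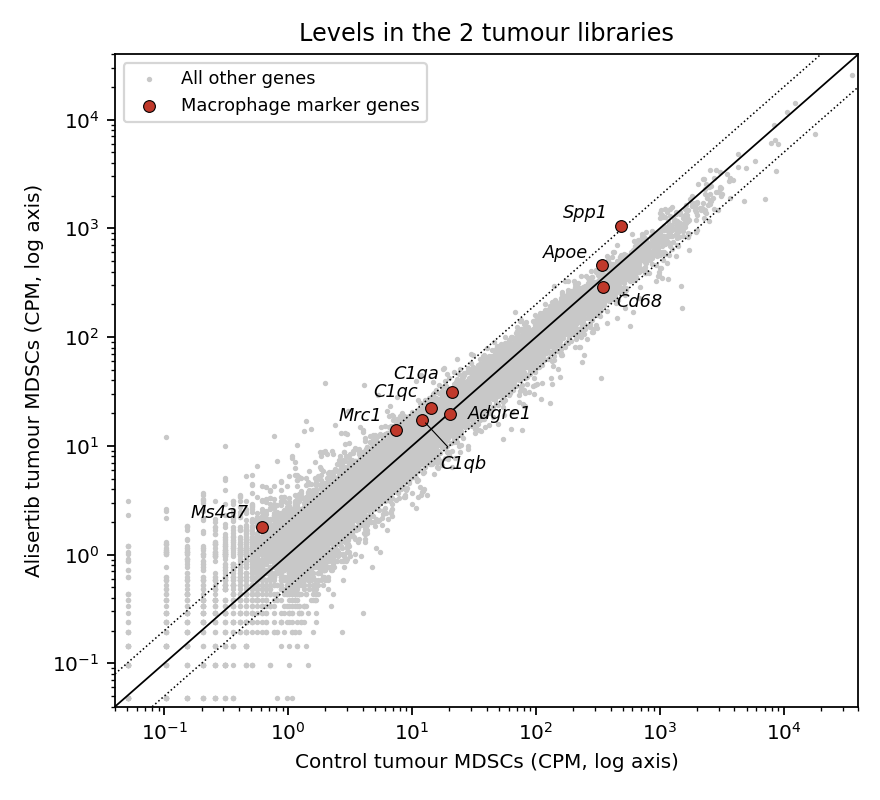
Level of 12900 genes past the level filter and above 0 in both tumour libraries, in CPM on log axes, control on the horizontal axis and alisertib on the vertical axis, with the 9 macrophage marker genes as large points. The solid line marks equal levels and the dotted lines a 2-fold difference, and Spp1, at 1042 CPM against 488 CPM, and Ms4a7 lie above the upper dotted line.

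In FPKM the order of the 9 genes was the same in both tumour libraries and different in bone marrow. In alisertib MDSCs it ran Spp1 at 614, Cd68 at 224, Apoe at 208, C1qa at 28.9, C1qb at 15.5, C1qc at 11.2, Adgre1 at 5.84, Mrc1 at 2.11 and Ms4a7 at 0.39 FPKM, and no neighbours in that order had overlapping intervals. In control MDSCs the order ran from Spp1 at 288 and Cd68 at 268 to Apoe at 154, C1qa at 19.7, C1qb at 10.9, C1qc at 7.23, Adgre1 at 6.09, Mrc1 at 1.13 and Ms4a7 at 0.13 FPKM. There the intervals of C1qc and Adgre1 overlapped. In bone marrow neutrophils Apoe led at 39.8, before Cd68 at 19.1, Spp1 at 7.15, C1qa at 5.69, Adgre1 at 4.32, C1qb at 3.27, C1qc at 1.93, Mrc1 at 0.87 and Ms4a7 at 0.09 FPKM. The intervals of Spp1 and C1qa, of C1qa and Adgre1, and of Adgre1 and C1qb overlapped there. Among all genes in the FPKM table, Spp1 lay above 99.8% in alisertib MDSCs, 99.1% in control MDSCs and 80.2% in bone marrow neutrophils.

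Set against Cd68, a scaling chosen after the values were seen, the genes parted into different patterns. Per 100 counts of Cd68 there were 10.7 counts of C1qa in alisertib MDSCs, 6.08 in control MDSCs and 24.6 in bone marrow neutrophils. Apoe had 159, 97.8 and 355 counts per 100 counts of Cd68 in the same order, and Adgre1 had 6.74, 5.87 and 58.4. Apart from Spp1, all of the genes were highest relative to Cd68 in bone marrow. Spp1 had 360 counts per 100 counts of Cd68 in alisertib MDSCs, 141 in control MDSCs and 49.1 in bone marrow neutrophils.

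The profiles of the 9 genes over the 3 libraries were compared by Euclidean distance between centred log2 CPM values among 7353 candidate genes, as a description of 3 values per gene. The 3 genes nearest to C1qa were Ube2o, Slc7a1 and Kdsr, and of the other marker genes C1qb ranked 8, Apoe 16 and C1qc 17. The ranks of the rest for C1qa were 1225 for Mrc1, 2080 for Adgre1, 2248 for Cd68 and 5990 for Spp1. The genes nearest to C1qb were Gadd45g, Rasa4 and Urb2, and those nearest to C1qc were Siglecf, Nat10 and Acp5. For Apoe they were Brd2, Adgrb1 and Coq8a, and C1qa ranked 19, C1qc 22 and C1qb 26. For Cd68 they were Cmklr1, Tcf7l2 and Cystm1, and for Spp1 they were Best1, Il23a and Icam1, with Cd68 at rank 195. For Adgre1 they were Cd164, Wasl and Sntb2, for Mrc1 Lonrf3, Pde3b and Wdr43, and for Ms4a7 Ifit1, Arap2 and Usp31. C1q and Apoe thus lay near each other by this measure. Ranks depend on the gene they start from, as Spp1 ranked 5990 from C1qa and C1qa ranked 610 from Spp1.

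Other macrophage markers did not all move with the 9 genes. Of 28 such markers, 23 passed the level filter, of which 0 were called in alisertib over control. In control over bone marrow 11 were called higher and 4 lower, and in alisertib over bone marrow 10 higher and 2 lower. Of all genes, 1.80% were called higher and 1.18% lower in alisertib over control, and 0 of 23 is close to these shares. The shares were 18.3% higher and 22.9% lower in control over bone marrow, and 18.7% and 22.3% in alisertib over bone marrow. Cd14, a co-receptor for bacterial lipopolysaccharide, had a ratio of 32.3 (31.5 to 33.2) for control over bone marrow, and Ctsl, a lysosomal protease, 13.4 (12.5 to 14.3). Selenop, a selenium carrier, was lower in control MDSCs than in bone marrow, at a ratio of 0.27 (0.24 to 0.30). The following markers were named after their values were seen. Csf1r, the macrophage growth factor receptor, had 3587 counts in alisertib MDSCs, 3393 in control MDSCs and 4029 in bone marrow neutrophils, and its ratio was 0.99 in each comparison. Trem2, a lipid-sensing receptor, had 116, 130 and 15 counts, and Gpnmb, a lysosomal glycoprotein, had 429, 196 and 1 counts in the same order. Cd163, the haemoglobin scavenger receptor, had 18, 3 and 53 counts, Mertk, an engulfment receptor, 13, 12 and 12, and Marco, a scavenger receptor, was at 0 counts in both tumour libraries. Cd163 passed the level filter only through the bone marrow library, and Mertk and Marco did not pass it.

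Markers of other cell types moved between the libraries beside the 9 genes, and their part in the values above was not tested. Counts of their calls are to be read against the shares of all genes just given. Neutrophil markers summed to 16006 CPM in alisertib MDSCs, 37144 in control MDSCs and 119503 in bone marrow neutrophils, none was at 0, and 10 of 17 were called lower in alisertib over control. T and NK cell markers summed to 49.96, 18.02 and 145 CPM in the same order, of which Cd3d, chosen after its values were seen, gave 6.21, 8.70 and 136 CPM. Against that sum, 8 of 11 past the filter were called higher and 2 lower in alisertib over bone marrow, and 7 of 11 past the filter were called higher in alisertib over control, among them Tcf7 at 8.59 (5.57 to 13.9). Both counts include Cd3e, Trac and Trbc1, which passed the filter only through the alisertib library. Cd8a, called over bone marrow and not over control, also passed only there. The share called is therefore a description only. Ncr1 and Klrb1c were at 0 counts in the alisertib library, Klrb1c in the control library and Trac in bone marrow. B cell markers summed to 46.5, 6.86 and 219.6 CPM, none was at 0, and 6 of 9 were called higher in alisertib over control, among them Ighm at 6.97 (5.30 to 9.31). Monocyte markers summed to 1014 CPM in alisertib MDSCs, 1439 in control MDSCs and 15396 in bone marrow neutrophils, with 1 of 16 called lower between the tumour libraries, Chil3 at 0.29 (0.26 to 0.32), and 3 called higher and 7 lower in control over bone marrow, such as Nr4a1 at 2.58 (2.44 to 2.71) and Ly6c2 at 0.054 (0.047 to 0.061). Lyz2, the lysozyme gene, gave 13180 CPM of the monocyte sum in bone marrow, and Chil3 gave 1402 CPM. In alisertib and control MDSCs Lyz2 gave 420 and 545 CPM, and Chil3 23.3 and 79.9 CPM. The higher monocyte sum in bone marrow thus rests largely on these genes. Dendritic cell markers summed to 202, 165 and 51.9 CPM, of which Itgax alone gave 169, 151 and 19.25 CPM in the same order. The higher tumour sums thus rest largely on Itgax. Of 11 past the filter Ccr7 was called higher and Ccl22 lower in alisertib over control, and Ccl22 passed the filter only through the control library. Eosinophil, mast cell and basophil markers summed to 68.1, 49.4 and 186 CPM, with 0 of 10 called between the tumour libraries, a median log2 ratio of −0.28 and 4 of 10 above 0. Adgre1 is also carried by mouse eosinophils. Of their markers, Siglecf had a ratio of 1.47 (1.34 to 1.62) for alisertib over control, and Prg2, a granule protein, 0.47 with 10 counts in alisertib MDSCs and 20 in control MDSCs. In an endothelial list with 2 genes past the filter, Vwf was called higher in alisertib over control at 2.69 (2.15 to 3.37). The other, Pecam1, had a ratio of 0.86 (0.78 to 0.95) and was not called. No gene of the fibroblast, epithelial, or erythroid and platelet lists was called between the tumour libraries, with only 2, 3 and 6 genes past the filter. Of the 3 epithelial genes, Epcam and Krt18 were called higher in each tumour library than in bone marrow, and 0 were called lower. Both passed the filter through the tumour libraries only.

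**Figure D5:**
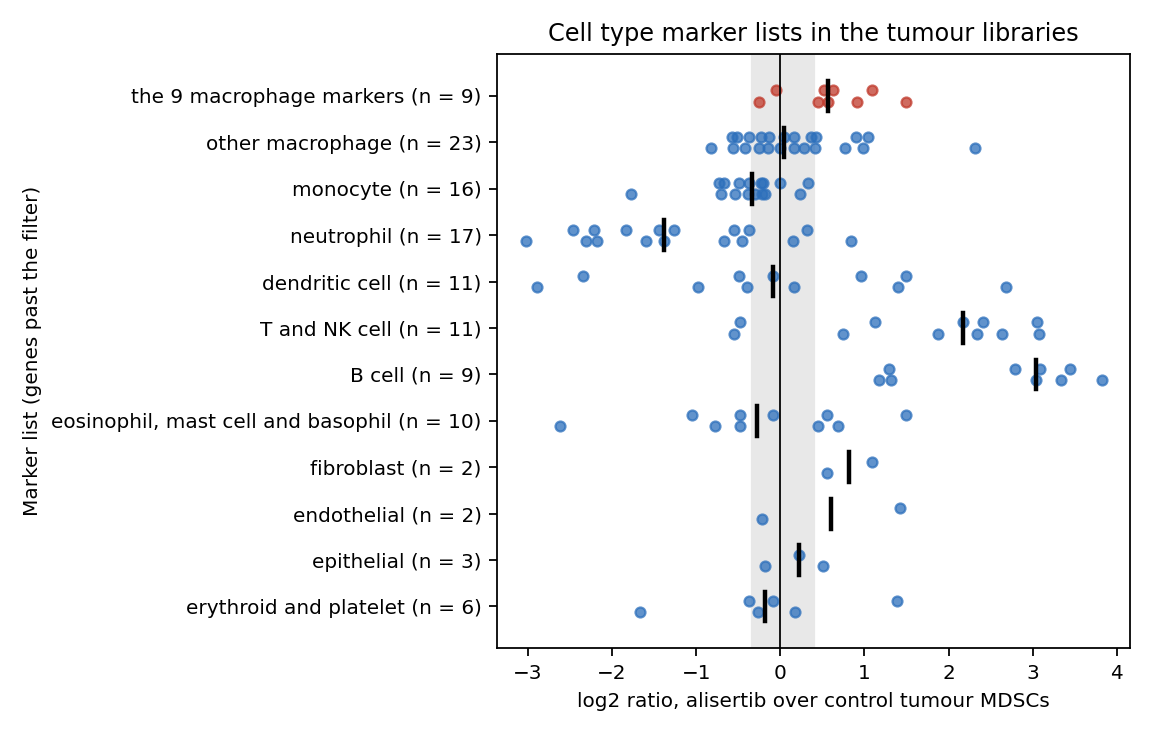
Log2 ratio of alisertib over control for each gene past the level filter in the 9 macrophage marker genes and in the lists of cell type markers, 1 point per gene, with a short line at the median of each list and a grey band from the first to the third quartile of all genes. The 9 genes have a median of 0.56, the neutrophil list −1.39, the T and NK cell list 2.17 and the B cell list 3.04.

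For the gene lists that follow, 0 calls in alisertib over control is close to the shares of all genes called there, 1.80% higher and 1.18% lower. Counts in control over bone marrow are to be read against 18.3% higher and 22.9% lower, and in alisertib over bone marrow against 18.7% and 22.3%. Among partners of C1q, genes were called in both directions against bone marrow. Of 11 other genes of the classical complement pathway and its regulators past the filter, 0 were called in alisertib over control, with a median log2 ratio of −0.04, and 3 were called higher and 2 lower in control over bone marrow. C3ar1, the receptor for the complement fragment C3a, had a ratio of 7.93 (5.78 to 11.1) for control over bone marrow, and Cd55, which speeds the decay of complement convertases, 0.11 (0.10 to 0.13). In alisertib over bone marrow 3 were called higher and 3 lower, and the lower ones included Cfp, which encodes properdin of the alternative pathway, at 0.35 (0.34 to 0.38). Of 6 reported C1q-binding receptors and partners, 0 were called between the tumour libraries, and Cd93, at 2.57 (2.35 to 2.80), and Lrp1, an endocytic receptor, at 4.54 (4.22 to 4.90), were called higher in control over bone marrow. Of 6 other genes with a C1q domain, 0 were called between the tumour libraries, and Emilin2, an extracellular matrix glycoprotein, had a ratio of 4.79 (4.69 to 4.89) for control over bone marrow.

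Receptors for osteopontin, the product of Spp1, were called in both directions between control MDSCs and bone marrow. Of 9 receptors, 0 were called between the tumour libraries, with a median log2 ratio of −0.09, while 5 were called higher and 3 lower in control over bone marrow. Cd44, a surface receptor for osteopontin and hyaluronan, had a ratio of 0.73 (0.72 to 0.74) for alisertib over control and 3.37 (3.32 to 3.43) for control over bone marrow. The integrin chains Itga5 and Itgav had ratios of 34.1 (28.7 to 40.9) and 4.88 (4.49 to 5.31) for control over bone marrow, and Itgb1 had 3.62 (3.38 to 3.88). The 3 called lower there, named after their values were seen, were also integrin chains. They were Itgb3 at 0.086 (0.073 to 0.102), Itga4 at 0.17 (0.15 to 0.19) and Itga8 at 0.12 (0.03 to 0.34). Itga8 passed the level filter only through the bone marrow library.

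Beside Apoe, the lipid transporters Abca1 and Abcg1 were called higher in both tumour libraries than in bone marrow. Of 10 genes of the Apoe cluster and of macrophage lipid efflux past the filter, 0 were called between the tumour libraries, and 4 were called higher and 1 lower in control over bone marrow. Abca1, the transporter that loads lipid onto apolipoproteins, had 26346 counts in alisertib MDSCs, 25100 in control MDSCs and 124 in bone marrow neutrophils. Its ratio was 0.988 (0.971 to 1.005) for alisertib over control and 239 (200.4 to 287) for control over bone marrow. Abcg1, another cholesterol transporter, had a ratio of 5.71 (5.35 to 6.10) for control over bone marrow. Of 7 apolipoprotein E receptors, 0 were called between the tumour libraries and 3 were called higher in control over bone marrow, among them the proteoglycan Sdc1 at 19.4 (14.2 to 27.1).

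Relatives of Adgre1, Mrc1, Ms4a7 and Cd68 were mixed. Of 13 past the filter, 1 was called higher and 0 lower in alisertib over control, and 5 were called higher and 4 lower in control over bone marrow. The gene called between the tumour libraries was Ms4a4b, a relative of Ms4a7 that T cells express, with 64 counts in alisertib MDSCs, 4 in control MDSCs and 18 in bone marrow neutrophils and a ratio of 15.1 (5.60 to 56.9). Like Ms4a7, Ms4a4b passed the level filter only through the alisertib library, so its call is a description only. Lamp1 and Lamp2, lysosomal membrane proteins of the family of Cd68, had ratios of 2.996 (2.89 to 3.10) and 2.66 (2.58 to 2.74) for control over bone marrow, against 14.2 for Cd68. Adgre5, the relative of Adgre1 that encodes CD97, had a ratio of 0.52 (0.50 to 0.54) for alisertib over control, which was not called, and 2.13 (2.06 to 2.20) for control over bone marrow.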

How the data were processed

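RNA was measured by RNA-seq in 3 libraries, 1 per group. Per the labels' protocols, Trizol was used for extraction and a NEBNext Ultra kit for library preparation. The submitters' processing notes name CASAVA 1.8, STAR 2.5.1b and the builds mm9 and mm10, without a role or order, and the counter, annotation and strand setting were not given in the sources used here. The authors deposited unnormalized counts of reads for each gene in 1 table and FPKM in another. Both were used as deposited.

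Counts were scaled by TMM (edgeR 4.0.16, R 4.3.3). With 1 library per group no count model was fitted. Ratios of CPM have exact 95% Clopper-Pearson intervals (scipy 1.17.1), and log2 ratios have 0.5 added to counts. A gene entered with at least 1 CPM in 1 library, and a count of 0 allows up to 3 counts, or 0.145 CPM in the alisertib, 0.154 in the control and 0.130 in the bone marrow library. Intervals and this limit cover counting error only. Scripts were tested on simulated data. The 9 genes, and 20 lists with 262 genes, 4 of them in 2 lists, were chosen with earlier results of these data known. Text names up to 4 genes per list, those called between the tumour libraries first, then those called in another comparison, then the rest, each by highest CPM, and the 3 nearest genes per marker gene. Alternatives were other scalings (among them size factors of DESeq2 1.42.0), level filters, added counts, FPKM and call bounds. The FPKM table lists 23327 genes, of which 19173 are also in the count table.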

Additional observations from a re-analysis of the deposited data

Results flagged for a closer look

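The genes below are list genes in the FPKM table and not in the count table, so they entered no comparison. They were picked by their level in the tumour libraries, and a gene high in bone marrow alone could not appear here. Their lower level in bone marrow is therefore a description of the picked genes only. Krt8, an epithelial keratin, was at 6.63 FPKM in alisertib MDSCs, 5.17 in control MDSCs and 0.024 in bone marrow neutrophils. Krt19, another keratin, was at 1.89, 1.21 and 0 FPKM in the same order. Cldn4, a tight junction protein, was at 1.96 FPKM in alisertib MDSCs, 2.11 in control MDSCs and 0 in bone marrow neutrophils. Tpsb2, a mast cell tryptase, was at 1.56, 0.42 and 0 FPKM in that order.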

How the results depend on the processing

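No paired analysis was possible because each group had 1 library, and for the same reason no replicate could be left out. Of the recomputed ratios of single genes and shares of C1q chains, 130 kept within their limits and 41 moved, and no called ratio changed direction. The counts of calls and medians that moved are as follows. In alisertib over control, total counts gave 431 genes higher and 82 lower with a median log2 ratio of 0.83 for the 9 genes, and totals without the 50 most counted genes gave 420, 91 and 0.79. At 10 CPM or more, 66 genes were called higher there. With a bound of 1.5-fold, 617 genes were higher and 640 lower, and 2 of the 9 genes were called, Mrc1 beside Spp1. With a bound of 3-fold, 95 were higher and 26 lower, and 0 of the 9 genes were called. In control over bone marrow, 10 CPM gave 1564 higher and 1956 lower, and 3-fold gave 1496 higher and 1854 lower, with 3 of the 9 genes called. In alisertib over bone marrow, 10 CPM gave 1482 higher, and 3-fold gave 1568 higher and 1788 lower. With 1 added to FPKM, the median log2 ratio of the 9 genes was 1.49 for control and 2.05 for alisertib over bone marrow. The smaller counts at 10 CPM and at 3-fold follow from fewer genes tested or the stricter bound, and the larger ones at 1.5-fold from the looser bound. In alisertib over control, total counts and totals without the 50 most counted genes moved the median log2 ratio of all genes by 0.27 and 0.23. The cause of the remaining moves was not tested. Depth limits Ms4a7 most, with 9 to 37 counts per library.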

Other observations

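A further list held macrophage growth factors, receptor chains and transcription factors of the lineage, without Csf1r. Of its 10 genes past the filter, 4 are growth factors or receptor chains and 6 are transcription factors. In alisertib over control 0 were called, 6 were called higher in control over bone marrow and 7 in alisertib over bone marrow, and 0 were called lower in any of these. The 6 called in control over bone marrow were Csf1, Csf2rb and Csf2rb2 and the transcription factors Cebpb, Irf5 and Tfec. Csf1, the growth factor of the macrophage lineage, had 14303 counts in alisertib MDSCs, 15364 in control MDSCs and 2884 in bone marrow neutrophils, a ratio of 6.29 (6.05 to 6.55) for control over bone marrow. Csf2rb2, a receptor chain for interleukin 3, had a ratio of 14.3 (13.3 to 15.3) in that comparison, and Cebpb, a transcription factor of myeloid cells, 6.98 (6.83 to 7.14).

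Of 11 genes of alternatively activated macrophages past the filter, 0 were called higher and 2 lower in alisertib over control, and 8 were called higher and 1 lower in control over bone marrow. The genes called lower between the tumour libraries were Retnla, a secreted resistin-like protein with 6 counts in alisertib MDSCs, 33 in control MDSCs and 0 in bone marrow neutrophils, and Chil3, a chitinase-like protein with 484, 1560 and 32336 counts. The ratio of alisertib over control was 0.17 (0.06 to 0.41) for Retnla and 0.29 (0.26 to 0.32) for Chil3. Retnla passed the level filter only through the control library, where it was highest, so its call is a description only. Mrc1, itself a marker of this state and one of the 9 genes, had a ratio of 1.88. Tgm2, a transglutaminase, had a ratio of 150.0 (132 to 171) for control over bone marrow and 0.72 (0.71 to 0.73) for alisertib over control.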
